A study of Mus musculus with 6 samples.

Results

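The mitochondrial genome of the mouse holds 37 genes: 13 mRNAs, 2 rRNAs and 22 tRNAs. All 37 were taken by their GENCODE symbols, which start with mt-, out of the 55487 genes in the deposited tables. The study sequenced poly(A) RNA of naive CD4+ T cells from spleen of wild-type (WT) C57BL6/J mice, in 3 libraries of an untreated group and 3 of a group treated in vivo with Rapamycin. Rapamycin inhibits the kinase mTOR, and the series title asks how this changes spleen naive CD4+ T cells. Both groups share strain, genotype, tissue and cell type, and dose, duration of treatment, age and sex are not given in the sources used here. The labels do not say whether each library came from its own mouse, so p-values here speak of how far these libraries scatter, and part of that scatter may be technical.

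Both strands of the small circular mitochondrial genome are transcribed as long precursors. Most genes lie on one precursor, while mt-Nd6 and some tRNAs are read from the opposite strand, here called the L-strand transcript. tRNAs sit between most of the mRNAs and rRNAs, and their excision frees the mature RNAs, most of which then receive a short poly(A) tail. The mRNAs encode core subunits of respiratory complexes I, III, IV and V, whose other subunits come from nuclear genes, and the rRNAs form the mitochondrial ribosome. T cells draw on this machinery for ATP and for building blocks, and mTOR complex 1 is known to promote translation of nuclear mRNAs for mitochondrial proteins.

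Of the 37 genes, 28 lie on the plus strand and 9 on the minus strand of chromosome M. The minus-strand genes are mt-Nd6 and 8 tRNAs, so mt-Nd6 was the only L-strand gene with counts. The sequences below are from the GENCODE vM21 transcripts (GRCm38, the assembly that mm10 names), and each set is shown for what it does to the counts. Parts of the mitochondrial genome also stand in the nuclear genome as annotated pseudogenes. At 95% identity over at least 100 bases, 11 such nuclear copies were found, 7 of them in order on chromosome 1 between positions 24611535 and 24616197. The first 60 bases of mt-Co2 are shown against 2 of its copies, Gm28661 on chromosome 1 (chr1:24614885-24615565, minus strand) and Gm13341 on chromosome 2 (chr2:22587291-22587962, minus strand), with capitals at the bases where Gm13341 differs. Positions are counted from 1 at the first base of the mitochondrial transcript, and a substitution gives the mitochondrial base, the position and the base of the copy.
mt-Co2: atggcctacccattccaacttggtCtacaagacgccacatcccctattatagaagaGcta
Gm28661: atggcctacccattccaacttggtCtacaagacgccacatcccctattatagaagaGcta
Gm13341: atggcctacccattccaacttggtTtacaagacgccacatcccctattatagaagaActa
Gm28661 has 0 differences from mt-Co2 in this window, and Gm13341 has 2, C25T and G57A.

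The first 60 bases of mt-Nd3 are shown against its copy Gm28438 (chr1:24612775-24613119, minus strand), with a capital at the only difference between them, T3C.
mt-Nd3: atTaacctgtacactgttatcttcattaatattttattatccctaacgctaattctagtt
Gm28438: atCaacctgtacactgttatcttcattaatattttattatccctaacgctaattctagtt
A read that does not cover the third base of mt-Nd3 therefore fits gene and copy equally well within this window.

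Genes of the plus strand also overlap each other, so that some reads belong to both. The overlaps of mt-Atp8 with mt-Atp6 (43 shared bases, chrM:7915-7981 with flanks) and of mt-Nd4l with mt-Nd4 (7 shared bases, chrM:10155-10185 with flanks) are shown with the shared bases in capitals.
mt-Atp8/mt-Atp6: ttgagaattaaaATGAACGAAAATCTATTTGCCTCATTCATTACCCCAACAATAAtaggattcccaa
mt-Nd4l/mt-Nd4: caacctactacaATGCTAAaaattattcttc
Both capital stretches open with the start codon of the downstream frame and hold the stop codon of the upstream one.

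Transcript ends show where poly(A) tails complete the coding sequence. The last 15 bases are shown for the genes whose transcript ends in a lone T (mt-Co3, mt-Nd4 and mt-Cytb), and for mt-Nd6 and mt-Nd5, which carry a whole stop codon. Capitals mark the annotated part of the stop codon.
mt-Co3: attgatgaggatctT
mt-Nd4: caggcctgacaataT
mt-Cytb: taaaattatatccaT
mt-Nd5: attaatctcgagTAA
mt-Nd6: attactcgagatTAA
For the first 3, polyadenylation supplies the remaining As of the stop codon, as textbook background. mt-Nd5 (ending at chrM:13551-13565, plus strand) and mt-Nd6 (ending at chrM:13552-13566, minus strand) run into each other on opposite strands. The library kit is directional, but the strand setting of the counting is not given in the sources used here. Reads of mt-Nd6 therefore cannot be told apart with certainty from RNA of the opposite strand.

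The tRNAs were listed at 0 counts in all 6 libraries, and this says nothing about their abundance. Their transcripts are 59 to 75 bases long, and their deposited effective length, the number of positions at which a fragment can start, was 0 in each library. No fragment could be assigned to them. The shortest, mt-Ts2 (serine, chrM:11613-11671, plus strand), and the longest, mt-Tl1 (leucine, chrM:2676-2750, plus strand), show how little sequence a fragment would have to fit into.
mt-Ts2: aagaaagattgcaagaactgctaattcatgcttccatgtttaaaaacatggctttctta
mt-Tl1: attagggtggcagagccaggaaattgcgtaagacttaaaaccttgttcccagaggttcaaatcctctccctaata
The 15 mRNAs and rRNAs all had counts in every library, and all 15 passed the filter on low counts.

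The libraries held 9712671 to 11393317 counts in the untreated group and 8757280 to 9315370 in the rapamycin group, and a limit of 3 counts corresponds to 0.263 to 0.343 CPM (counts scaled by library total; CPM of genes below are scaled by TMM factors too). Gene length minus effective length, which follows fragment length, was 239.6 ± 0.367 bases in untreated and 254 ± 3.10 bases in rapamycin libraries (SD, n = 3) over 4975 single-transcript genes, and the groups did not overlap (exact permutation test, two-sided, p = 0.1, the smallest that 3 against 3 can give). T cell markers (11 genes) summed to 7339 to 7425 CPM in untreated and 7619 to 7712 CPM in rapamycin libraries. Markers of other cells were low but moved with the group: the 2 CD8 T cell genes summed to 19.1 to 20.5 against 87.9 to 91.0 CPM, the 4 plasma cell genes to 36.7 to 37.7 against 5.57 to 6.84 CPM, and the 9 myeloid genes to 48.2 to 55.0 against 14.96 to 17.0 CPM. The 5 erythroid genes reported (haemoglobin genes and Alas2) summed to 7.99 to 11.3 against 2.62 to 3.13 CPM. The 6 B cell genes summed to 532 to 568 against 518 to 549 CPM. The part of fragment length and of these cells in the results below was not tested. In bulk RNA, fewer cells of a type and less RNA per cell cannot be told apart.

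RSEM, the counting tool, divides reads that fit several genes, and it divided the reads of 7 mitochondrial mRNAs with copies on chromosome 1. The copies together took 0.618 ± 0.0151% of all counts in untreated and 0.490 ± 0.0199% in rapamycin libraries (SD, n = 3). For mt-Atp6, a membrane subunit of ATP synthase, the copy Gm10925 took 88.0%, 83.0% and 85.4% of the joint reads in untreated and 81.3%, 78.8% and 78.9% in rapamycin libraries. For mt-Co3, a core subunit of cytochrome c oxidase, the copy Gm28437 took 88.0%, 85.5% and 86.2% against 86.5%, 88.5% and 90.3%. Most reads of these mRNAs were thus counted on a pseudogene in every library.

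For mt-Co2, the copper-bearing subunit of cytochrome c oxidase that receives electrons from cytochrome c, the copies took 28.0%, 35.2% and 41.1% of the joint reads in untreated libraries but only 0.782%, 12.3% and 4.41% in rapamycin libraries. The groups did not overlap in this division, although Gm28661 is identical to mt-Co2 over 681 of its 684 bases. mt-Nd3 lost 78.3%, 70.1% and 71.8% of joint reads against 68.6%, 57.5% and 62.7%. mt-Nd4l lost 54.5%, 66.9% and 43.0% against 70.8%, 55.6% and 52.9%. At most 3.08% went to the copy of mt-Nd4 and at most 0.109% to the copies of mt-Co1. Copies of mt-Nd2 and mt-Nd5 elsewhere in the genome had 0 counts. For genes with copies, the values below therefore join gene and copies first, and the deposited value follows. Joining counts every such read as mitochondrial, which the reads of identical stretches cannot show by themselves.

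**Figure D1:**
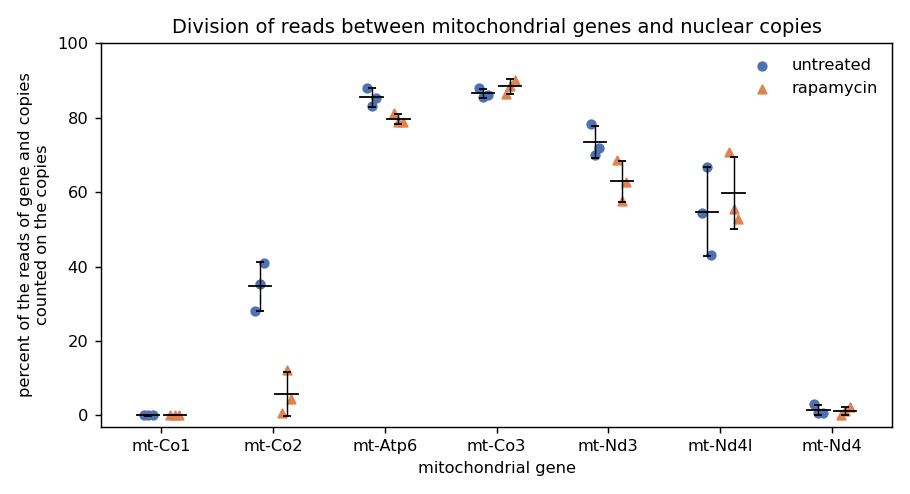
Percent of the joint reads of each mitochondrial gene (x axis) and its nuclear copies that were counted on the copies (y axis), in 3 untreated (circles) and 3 rapamycin libraries (triangles); lines and bars are mean ± SD. mt-Atp6 and mt-Co3 lost more than 78% of reads in every library, and for mt-Co2 the untreated libraries (28.0% to 41.1%) lie above the rapamycin libraries (0.782% to 12.3%).

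As deposited, 7 of the 15 genes were higher and 5 lower in rapamycin libraries in edgeR's quasi-likelihood test (p adjusted after Benjamini-Hochberg over all genes, threshold 0.05). Of all 11950 genes tested, 24.1% were higher and 23.3% lower. With nuclear copies added, 7 of the 15 were higher and 8 lower, beside 23.6% and 23.9% of all 11944 genes. Since 47.5% of all genes were called in one direction or the other with copies added, a call alone does not set a mitochondrial gene apart from the transcriptome. The median log2 fold change of the 13 mRNAs was 0.052 as deposited and 0.036 with copies added, beside -0.012 for all genes as deposited. The changes were small: with copies added, the mRNAs ranged from -0.45 (mt-Nd3) to 0.21 (mt-Nd5) on the log2 scale. CPM of the 2 groups did not overlap for all 15 genes with copies added, beside 54.0% of all genes, and for 12 of 15 as deposited, beside 53.8%.

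**Figure D2:**
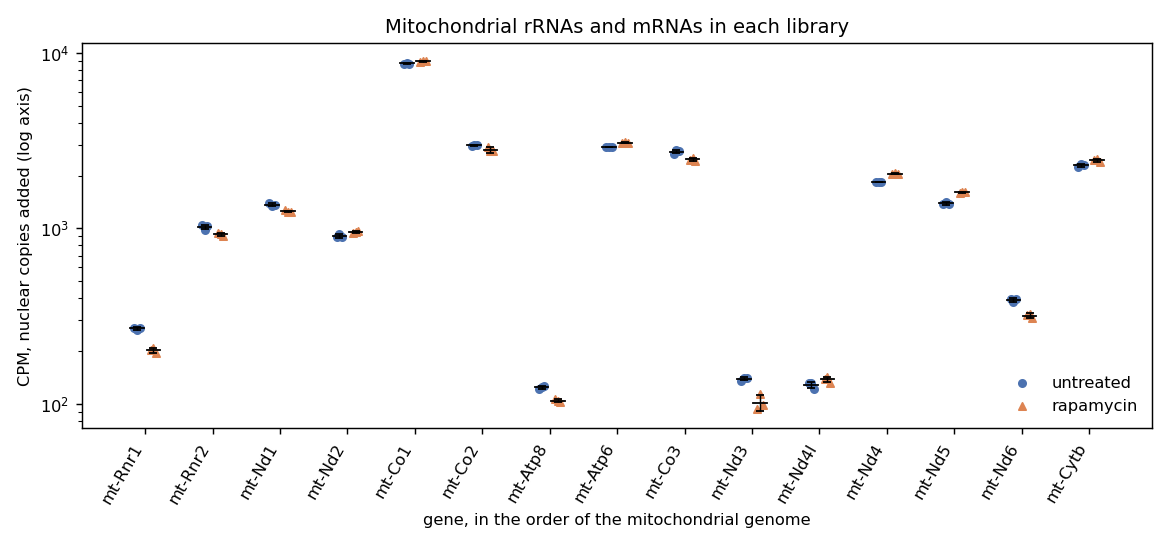
CPM (log axis) of the 15 mitochondrial rRNAs and mRNAs with nuclear copies added, in genome order, in 3 untreated (circles) and 3 rapamycin libraries (triangles); lines and bars are mean ± SD. Levels run from about 100 (mt-Nd3, 101 CPM in rapamycin libraries) to 8972 CPM (mt-Co1), and the groups lie close together for each gene.

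The mRNAs of complex I, the NADH dehydrogenase that feeds electrons from NADH into the chain, moved in both directions. mt-Nd5, a proton-pumping membrane subunit, had 1366, 1416 and 1377 CPM in untreated and 1602, 1611 and 1617 CPM in rapamycin libraries. It was higher in all 3 rapamycin libraries, with a log2 fold change of 0.22 ± 0.016 (SE; edgeR quasi-likelihood test, Benjamini-Hochberg adjusted p = 1.9e-17). mt-Nd4, another pumping subunit, had 1836, 1831 and 1835 CPM against 2043, 2069 and 2053 CPM with copies added. Its log2 fold change was 0.16 ± 0.015 with copies and 0.18 ± 0.015 as deposited. mt-Nd2, also in the membrane arm, had 897, 930 and 890 CPM against 941, 955 and 965 CPM, a log2 fold change of 0.074 ± 0.019 (edgeR, adjusted p = 1.1e-03). Its call was lost with upper-quartile scaling (log2 fold change 0.031), without composition factors (0.033) and with no filter on low counts (0.056).

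mt-Nd1, the subunit at the quinone-binding site between the arms of complex I, went the other way. It had 1388, 1346 and 1355 CPM in untreated and 1268, 1243 and 1248 CPM in rapamycin libraries, all 3 lower, with a log2 fold change of -0.12 ± 0.017 (edgeR, adjusted p = 1.9e-08). mt-Nd6, the L-strand subunit, had 394, 381 and 396 CPM against 321, 326 and 308 CPM. It fell by 0.29 ± 0.027 on the log2 scale (edgeR, adjusted p = 3.2e-14). Both turn to higher values with the correction for gene length described below, and mt-Nd1 was not called on log2(TPM + 1), at -0.0038.

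The short complex I mRNAs mt-Nd3 and mt-Nd4l also depended on the copies. With copies added, mt-Nd3 had 135, 140 and 140 CPM in untreated and 92.8, 113 and 98.4 CPM in rapamycin libraries, at a log2 fold change of -0.45 ± 0.048 (edgeR, adjusted p = 1.8e-10). The deposited mt-Nd3 values were 29.4, 41.9 and 39.4 against 29.3, 48.2 and 36.8 CPM, which overlap, at 0.052 ± 0.25 (edgeR, adjusted p = 0.89). mt-Nd4l had 131, 131 and 122 against 138, 142 and 132 CPM with copies added, a log2 fold change of 0.10 ± 0.041 (edgeR, adjusted p = 0.033). That call was lost without untreated replicate 3 (0.074), rapamycin replicate 1 (0.11) or rapamycin replicate 2 (0.084). The deposited mt-Nd4l values overlapped, with a log2 fold change of -0.050 ± 0.27.

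mt-Cytb, cytochrome b, is the only mitochondrial gene of complex III, which passes electrons from ubiquinol to cytochrome c. It had 2251, 2338 and 2288 CPM in untreated and 2473, 2488 and 2406 CPM in rapamycin libraries. The groups did not overlap, and mt-Cytb rose by 0.099 ± 0.015 on the log2 scale (edgeR quasi-likelihood test, Benjamini-Hochberg adjusted p = 1.3e-07). mt-Cytb has no copy at the identity used here.

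Complex IV, cytochrome c oxidase, has its 3 catalytic and core subunits from this genome. With copies added and no length correction, they moved in both directions. With copies added and the length correction described below, all 3 were higher, at 0.16 (mt-Co1), 0.26 (mt-Co2) and 0.16 (mt-Co3) on the log2 scale. mt-Co1, which holds the heme and copper site where oxygen is reduced, had 8717, 8813 and 8728 CPM in untreated and 8892, 9023 and 9002 CPM in rapamycin libraries with copies added. Its log2 fold change was 0.042 ± 0.010 as deposited (edgeR, adjusted p = 5.2e-04) and 0.036 ± 0.011 with copies added (edgeR, adjusted p = 6.7e-03). The deposited call was lost with upper-quartile scaling (-0.0016), without composition factors (0.00041) and with no filter on low counts (0.023). mt-Co1 is the most abundant by count, with 34.1% of mitochondrial mRNA counts in rapamycin libraries, copies added.

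mt-Co2 changed direction with the treatment of its copies. The deposited values were 2115, 1944 and 1759 CPM in untreated and 2908, 2421 and 2637 CPM in rapamycin libraries, with all 3 rapamycin libraries higher and a log2 fold change of 0.45 ± 0.11 (edgeR, adjusted p = 0.028). With copies added, mt-Co2 had 2943, 3002 and 2993 against 2926, 2756 and 2752 CPM, all 3 lower, at -0.084 ± 0.019 (edgeR, adjusted p = 1.1e-03). The SD within the untreated libraries was 178 CPM as deposited and 31.9 CPM with copies added. The deposited call was lost without untreated replicate 2 (0.45) or 3 (0.39) and without rapamycin replicate 1 (0.38) or 3 (0.46), and with no filter (0.43). With copies added, the call was lost with effective lengths as offsets (-0.055). mt-Co3 had 2676, 2796 and 2757 against 2467, 2540 and 2417 CPM with copies added, at -0.15 ± 0.016 (edgeR, adjusted p = 9.2e-10). As deposited, mt-Co3 stood at 368 ± 42.9 against 287 ± 49.3 CPM (SD, n = 3), with overlapping groups, and was not called.

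Complex V, ATP synthase, has mt-Atp6 and mt-Atp8, which are translated from a single mRNA with overlapping frames. mt-Atp6 had 2913, 2930 and 2925 CPM in untreated and 3058, 3100 and 3083 CPM in rapamycin libraries with copies added, at 0.076 ± 0.013 (edgeR, adjusted p = 2.8e-06). As deposited it had 350, 497 and 426 against 571, 660 and 652 CPM, at 0.57 ± 0.16 (edgeR, adjusted p = 0.044). Only the direction is common to both: the deposited difference is several times larger, and its call was lost without untreated replicate 1 (0.44) or 3 (0.57), and without rapamycin replicate 1 (0.63), 2 (0.53) or 3 (0.54). It was also lost with upper-quartile scaling (0.52), without composition factors (0.53) and with no filter (0.55).

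mt-Atp8 had 121, 124 and 126 CPM in untreated and 107, 103 and 103 CPM in rapamycin libraries, at -0.25 ± 0.043 (edgeR, adjusted p = 2.1e-06). The call was lost with effective lengths as offsets (-0.022). The count of mt-Atp8 was 4.17%, 4.24% and 4.33% of that of mt-Atp6 with copies added in untreated and 3.49%, 3.33% and 3.32% in rapamycin libraries, although both frames share 1 RNA. The mt-Atp8 transcript is annotated at 204 bases, shorter than a typical fragment here, and its effective length was 9.08 to 11.21 bases. Its TPM (deposited values scaled for effective length and depth), 14261 to 15992, divide by that number and are not used to rank its level. Sums of deposited TPM below include them where this is said. The matching ratio of mt-Nd4l to mt-Nd4, the other shared mRNA, was 6.97 ± 0.297% against 6.70 ± 0.239% (SD, n = 3) with overlapping groups.

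Levels between genes can be compared only per length, in TPM. With copies added, mt-Co1, mt-Co2 and mt-Atp6 had nearly the same TPM in untreated libraries: 8807 ± 69.2, 8805 ± 99.7 and 8695 ± 33.4 (SD, n = 3). These genes lie near each other on the genome, with mt-Atp8 and tRNAs between them. As deposited, mt-Co2 and mt-Atp6 stood at 5742 ± 529 and 1264 ± 219 TPM. mt-Co3 followed at 6619 ± 153 TPM, then mt-Cytb (3335 ± 65.1), mt-Nd1 (2500 ± 41.0), mt-Nd4l (2375 ± 101), mt-Nd4 (2116 ± 1.197), mt-Nd6 (1835 ± 38.0), mt-Nd3 (1585 ± 29.5), mt-Nd2 (1493 ± 36.4) and mt-Nd5 (1151 ± 22.5). The rRNAs came last, with 999 ± 27.9 (mt-Rnr2) and 493 ± 9.78 TPM (mt-Rnr1). The values of mt-Nd3 and mt-Nd4l rest on effective lengths well below their transcript lengths. Neighbours in this order whose ranges over the 3 libraries overlapped were mt-Co1 with mt-Co2 and mt-Co2 with mt-Atp6. In rapamycin libraries mt-Atp6 had the most TPM of these (10110 ± 70.0), above mt-Co1 (9741 ± 79.0) and mt-Co2 (9162 ± 339).

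The rRNAs were lower in rapamycin libraries. mt-Rnr1, the 12S rRNA of the small ribosomal subunit, had 271, 262 and 271 CPM in untreated and 202, 207 and 195 CPM in rapamycin libraries. It fell by 0.41 ± 0.030 on the log2 scale (edgeR quasi-likelihood test, Benjamini-Hochberg adjusted p = 5.8e-18). mt-Rnr2, the 16S rRNA of the large subunit, had 1037, 985 and 1035 against 943, 935 and 907 CPM and fell by 0.13 ± 0.020 (edgeR, adjusted p = 6.8e-08). In both, all 3 rapamycin libraries lay below all 3 untreated ones. With the length correction, mt-Rnr1 remained called at -0.15 and mt-Rnr2 was at -0.023 and not called. mt-Rnr2 was likewise not called on log2(TPM + 1), at -0.030, or with the length and GC correction, at -0.099. In a poly(A) library, an rRNA count reflects only molecules that the poly(A) selection kept.

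Each rRNA was also set against an mRNA of nearly its own length, a choice made after the values were seen. The mt-Rnr1 count (955 bases) was 19.5%, 19.4% and 20.0% of that of mt-Nd1 (957 bases) in untreated libraries and 15.9%, 16.7% and 15.7% in rapamycin libraries. The mt-Rnr2 count (1582 bases) was 11.9%, 11.2% and 11.9% of that of mt-Co1 (1545 bases) against 10.6%, 10.3% and 10.1%. The mt-Rnr1 count was 26.3 ± 0.223% of that of mt-Rnr2 against 21.7 ± 0.413% (SD, n = 3), but these genes differ in length (955 and 1582 bases). In these 3 ratios the groups did not overlap, each with the smallest p an exact two-sided permutation test can give here, 0.1.

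**Figure D3:**
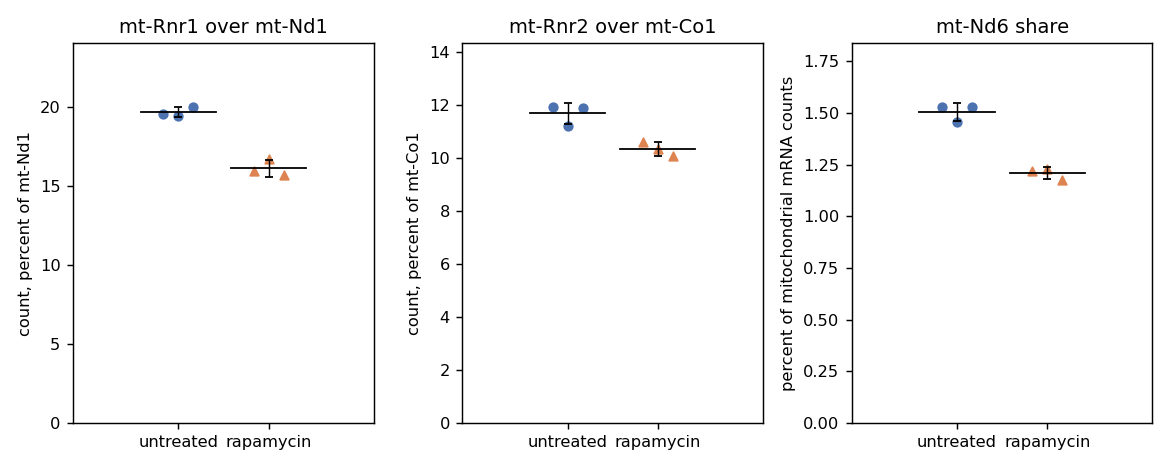
mt-Rnr1 as percent of mt-Nd1 (left), mt-Rnr2 as percent of mt-Co1 (middle), both by count, and mt-Nd6 as percent of mitochondrial mRNA counts with copies added (right), in 3 untreated (circles) and 3 rapamycin libraries (triangles) with mean ± SD. All rapamycin libraries lie below all untreated ones in each panel, for example 15.7% to 16.7% against 19.4% to 20.0% at left.

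By RNA class, rRNAs held 0.132%, 0.126% and 0.132% of all counts in untreated and 0.113%, 0.112% and 0.109% in rapamycin libraries (exact permutation test, two-sided, p = 0.1, also 0.1 adjusted over the 2 classes with counts). Within the mitochondrial counts, their share was 6.10 ± 0.218% against 5.02 ± 0.0888%, and 4.73 ± 0.159% against 4.11 ± 0.0683% with copies added (SD, n = 3). mRNAs held 2.01 ± 0.0235% of all counts in untreated and 2.10 ± 0.0123% in rapamycin libraries as deposited (exact permutation p = 0.1). With copies added these became 2.62 ± 0.0227% and 2.59 ± 0.0115%, which overlapped (exact permutation p = 0.2). By count, the mRNA share was thus higher in rapamycin libraries only while the copies were counted apart. On deposited TPM, which are scaled for length and include mt-Atp8, it was 4.52 ± 0.0276% against 5.22 ± 0.106% (SD, n = 3).

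All mitochondrial genes together held 2.13%, 2.16% and 2.12% of counts in untreated and 2.23%, 2.21% and 2.21% in rapamycin libraries. With copies added the order turned, to 2.74%, 2.78% and 2.75% against 2.70%, 2.72% and 2.69%. Neither pair of groups overlapped (exact permutation p = 0.1 for both). The deposited share without cytosolic ribosomal protein genes in the total was 2.40 ± 0.0223% against 2.43 ± 0.0143% and overlapped (exact permutation p = 0.3).

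By strand, the L-strand share was that of mt-Nd6 alone. It was 1.87%, 1.79% and 1.89% of mitochondrial counts in untreated and 1.42%, 1.45% and 1.38% in rapamycin libraries (exact permutation test, two-sided, p = 0.1). With copies added the shares were 1.43 ± 0.0383% and 1.16 ± 0.0269%, and among mRNAs only 1.51 ± 0.0426% and 1.21 ± 0.0288% (SD, n = 3). Against mt-Nd5, its neighbour on the opposite strand, the mt-Nd6 count was 28.2 ± 1.08% in untreated and 19.8 ± 0.634% in rapamycin libraries, but these genes differ in length (519 and 1824 bases). All 4 measures use the same mt-Nd6 count without a length correction, and by each the rapamycin libraries were lower without overlap. With copies added and the length correction, mt-Nd6 was higher, at 0.10 on the log2 scale (edgeR, adjusted p = 1.3e-03).

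Fold change followed gene length. Over the 13 mRNAs with copies added, it correlated with log2 length at Pearson r = 0.64 and with length at Spearman rho = 0.58. Over 9973 genes of all kinds with average log2 CPM of at least 2, these were r = 0.41 and rho = 0.51. These points are genes that share the same libraries. As deposited, the mRNAs gave r = 0.32 and rho = 0.37. The trend of each library with length was fitted over genes with average log2 CPM of at least 2 and removed. After this, 12 of the 15 genes with copies added were higher and 1, mt-Rnr1, lower, beside 20.1% higher and 18.3% lower among all genes. All mRNAs were then higher except mt-Nd3 (0.032 ± 0.046, not called), with a median of 0.29 and values from 0.032 to 0.62 (mt-Nd4l). mt-Nd1 stood at 0.13, mt-Nd6 at 0.10, mt-Co2 at 0.26, mt-Co3 at 0.16 and mt-Atp8 at 0.33 in that fit, all of which were lower without it.

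With the deposited effective lengths as offsets, 7 were higher and 6 lower, beside 16.2% and 15.1% of all genes. These offsets left most of the length trend in place. Over the same 9973 genes, Pearson r was still 0.37 and Spearman rho 0.46, against -0.0041 and 0.0086 with the length correction. mt-Nd5, mt-Nd4, mt-Cytb, mt-Nd2, mt-Atp6, mt-Co1 and mt-Nd4l were higher and mt-Rnr1 lower in every one of these fits with copies added. The direction of mt-Nd1, mt-Nd6, mt-Co2, mt-Co3 and mt-Atp8 rests on the treatment of length. mt-Nd3 with copies added also went from -0.45 to 0.032 with the length correction, where it was not called. The order of the members changed less: mt-Rnr1 lay below mt-Nd1 and every longer mRNA in all 3 panels of the plot of fold change by length.

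**Figure D4:**
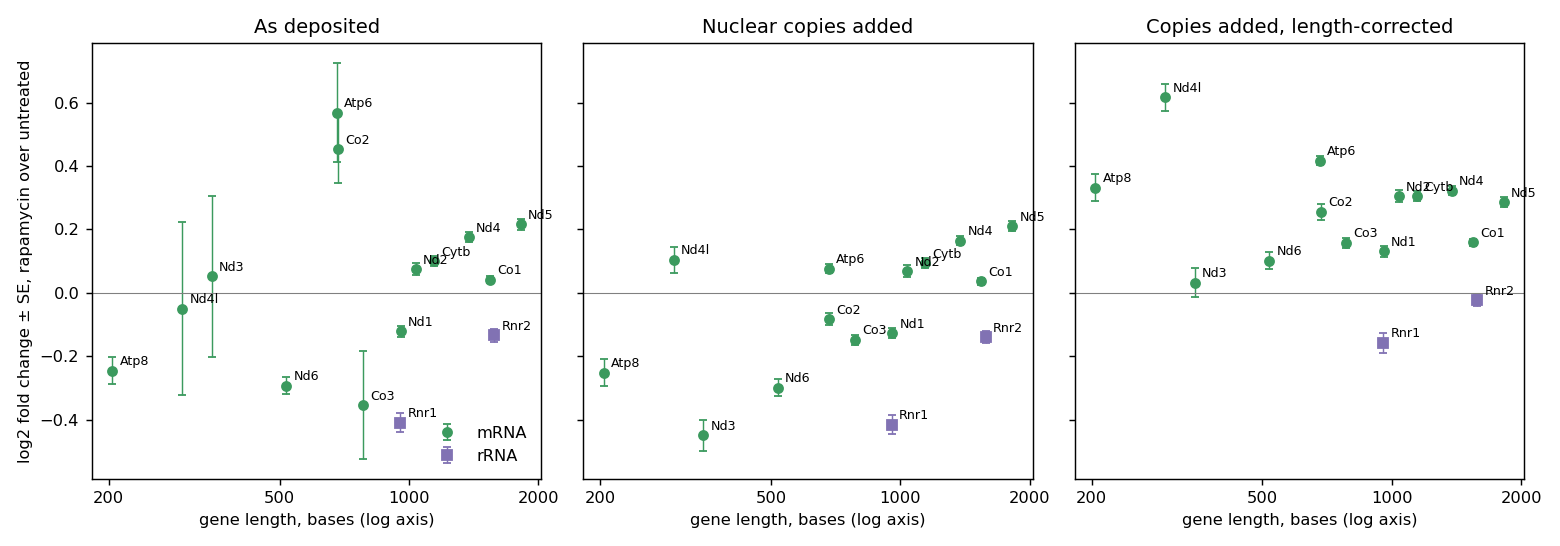
Log2 fold change ± SE of rapamycin over untreated libraries (y axis) against gene length in bases (log axis) for 13 mRNAs (circles) and 2 rRNAs (squares), as deposited, with nuclear copies added, and with copies added and a length correction. Adding copies moves mt-Co2 from 0.45 to -0.084 and mt-Atp6 from 0.57 to 0.076, and the length correction puts every mRNA above 0 and both rRNAs below it.

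Within the mRNA pool, shares are free of library scaling but not of gene length. They sum to 100% and so are not independent. With copies added, mt-Nd5 went from 5.35 ± 0.0547% to 6.11 ± 0.0518% of mitochondrial mRNA counts, and mt-Nd4 from 7.06 ± 0.0643% to 7.81 ± 0.0428% (SD, n = 3). mt-Co3 went from 10.6 ± 0.160% to 9.40 ± 0.184%, mt-Nd1 from 5.26 ± 0.129% to 4.75 ± 0.0608% and mt-Nd3 from 0.533 ± 0.00701% to 0.385 ± 0.0384%. These groups did not overlap. mt-Co1, at 33.7 ± 0.0922% and 34.1 ± 0.307%, and mt-Nd4l overlapped. With copies added and the length correction, mt-Nd5 was at 0.29 and mt-Nd4 at 0.32 on the log2 scale, beside an mRNA median of 0.29. mt-Co3 (0.16), mt-Nd1 (0.13) and mt-Nd3 (0.032) lay below that median.

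The nuclear subunits of the same complexes were lower by count. Of 36 nuclear complex I genes, 34 fell and 0 rose, and all 9 of complex III, 11 of complex IV and 15 of complex V fell (edgeR, adjusted p under 0.05), with medians of -0.43, -0.44, -0.43 and -0.44 on the log2 scale, beside 24.1% of all genes higher and 23.3% lower. These genes are short, with median lengths of 718, 602, 611 and 733 bases. With the length correction, 13, 4, 3 and 10 of them were lower and 1 (complex I) higher, with medians of -0.15, -0.14, -0.086 and -0.21, beside 20.2% higher and 18.3% lower among all genes.

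The ratio of summed TPM of mitochondrial to nuclear subunits was higher in rapamycin libraries in every complex. With copies added and without mt-Atp8, it was 3.88, 3.88 and 3.82 in untreated and 5.24, 5.22 and 5.26 in rapamycin libraries for complex I. For complex III it was 2.26, 2.25 and 2.24 against 3.41, 3.19 and 3.08. For complex IV it was 9.83, 10.3 and 9.99 against 12.8, 12.4 and 12.9, and for complex V 1.98, 2.03 and 1.95 against 2.86, 2.90 and 3.02. No complex had overlapping groups (exact permutation test, two-sided, p = 0.1 for each and 0.1 adjusted over the 4). On deposited TPM, with mt-Atp8 in complex V, the differences of mean log2 ratios were 0.44, 0.52, 0.58 and 0.49 for complexes I, III, IV and V. With length-corrected deposited counts they were 0.39, 0.47, 0.36 and 0.97. Both deposited sets leave out reads given to the copies. For mt-Atp6 in complex V, these were 85.5 ± 2.47% of joint reads in untreated and 79.7 ± 1.45% in rapamycin libraries (SD, n = 3). A ratio with both copies added and the length correction was not made.

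**Figure D5:**
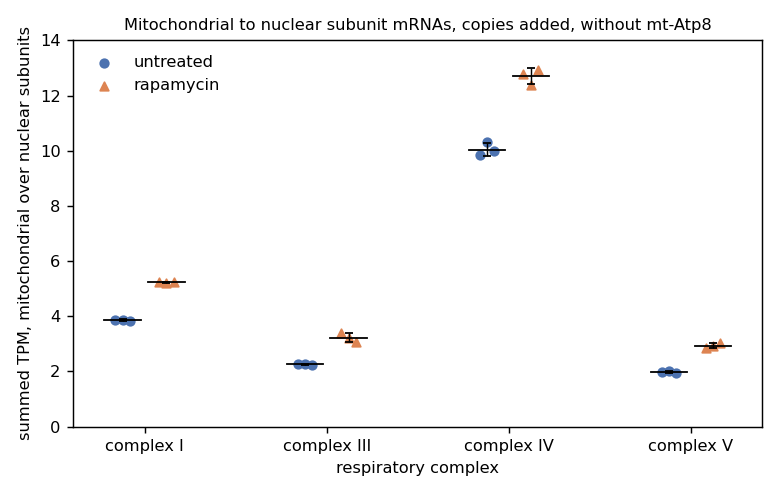
Summed TPM of mitochondrial over nuclear subunits (y axis) of complexes I, III, IV and V with nuclear copies added and without mt-Atp8, in 3 untreated (circles) and 3 rapamycin libraries (triangles) with mean ± SD. The rapamycin libraries are higher in each complex, for example 3.08 to 3.41 against 2.24 to 2.26 in complex III.

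The nuclear genes that replicate, transcribe, process and translate the mitochondrial genome did not share a direction. Of 79 listed, 78 were found by symbol and 77 were tested: 8 were higher and 15 lower (median log2 fold change -0.11), beside 24.1% and 23.3% of all genes. The counts depended on the scaling, with 7 higher and 25 lower under upper-quartile factors and 10 higher and 2 lower on log2(TPM + 1). Polrmt, the mitochondrial RNA polymerase, had 64.4, 63.3 and 62.9 CPM in untreated and 62.8, 74.4 and 64.7 CPM in rapamycin libraries, which overlap. Tfam, the promoter-binding and DNA-packaging factor, had 70.1, 64.4 and 71.7 against 66.6, 60.2 and 55.2 CPM, at -0.18 ± 0.061 (edgeR, adjusted p = 0.013). The Tfam groups overlapped, and its call was lost in 8 of 20 alternatives, at values from -0.34 to -0.095. Among these were leaving out untreated replicate 3 (-0.15) or rapamycin replicate 3 (-0.11), the length correction (-0.095) and DESeq2 (-0.17).

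Nor did the other steps move as a block. Twnk, the replicative helicase, was at 0.12 ± 0.086 and Mtpap, the mitochondrial poly(A) polymerase, at -0.026 ± 0.074, and neither was called. Lrpprc, which stabilises mitochondrial mRNAs and their tails, was at -0.11 ± 0.051 (edgeR, adjusted p = 0.076), and it was called with the length correction (-0.25), the length and GC correction (-0.26), upper-quartile factors (-0.15) and no composition factors (-0.15). Of 9 transcription genes, 0 were higher and 1 lower, of 12 RNA cleavage genes 0 and 3, and of 8 poly(A) and stability genes 2 and 0. Of 8 rRNA modification genes, 0 were higher and 1 lower, of 11 replication genes 1 and 1, and of 12 tRNA maturation genes 2 and 3. Over all genes tested, 24.1% were higher and 23.3% lower, and no step was tested against these shares.

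The members with the smallest adjusted p belonged to tRNA maturation, replication, translation and the nuclear regulators. Cdk5rap1, which modifies mitochondrial tRNAs, had 15.3, 16.4 and 12.7 CPM in untreated and 23.3, 24.8 and 28.0 CPM in rapamycin libraries and rose by 0.77 ± 0.11 on the log2 scale (edgeR, adjusted p = 1.9e-08). Tufm, the mitochondrial translation elongation factor Tu, had 70.3, 69.0 and 71.1 against 54.6, 55.8 and 53.2 CPM and fell by 0.36 ± 0.057 (edgeR, adjusted p = 3.2e-07). Among 11 translation genes, 4 were lower and 1 higher, beside 23.3% lower and 24.1% higher among all genes. Of the nuclear regulators (6 tested, 2 higher and 2 lower, beside the same shares of all genes), Nrf1, an activator of nuclear genes for respiration, rose by 0.27 ± 0.053, and the coactivator Ppargc1b by 0.52 ± 0.11. Rrm2b, a ribonucleotide reductase subunit that supplies nucleotides for mitochondrial DNA, rose by 0.29 ± 0.073. Trnt1, which adds the CCA end of tRNAs, fell by 0.31 ± 0.070. Pus1, a pseudouridine synthase, fell by 0.26 ± 0.069, and Tk2, the mitochondrial thymidine kinase, by 0.21 ± 0.052. Cdk5rap1, Tufm, Nrf1 and Ppargc1b kept their calls in all 20 alternatives tried. Pus1 lost its call with the length correction (-0.16), with the length and GC correction (-0.14) and on log2(TPM + 1) (-0.15). Trnt1 and Tk2 lost theirs on log2(TPM + 1) (-0.10 and -0.039) and with effective lengths as offsets (-0.23 and -0.15). Rrm2b lost its call with the length and GC correction (0.17) and with effective lengths as offsets (0.30).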

How the data were processed

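Per the file headers, every library has a deposited RSEM table with, by gene, length, effective length, expected counts, TPM and FPKM. An expected count, as deposited, is a sum of reads in which a read that fits several genes is split among them. TPM and FPKM were made by the authors from these counts by division by effective length and depth, and FPKM was not used here. Per the submitters' processing notes, STAR and RSEM were run against mm10, and versions and strand setting are not given in the sources used here. RNA was poly(A) selected and libraries were made with a directional kit, per the labels' protocols.

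Symbols came from GENCODE vM21 (55141 of 55487 identifiers matched, and the other 346 took up to 0.0398% of counts). Nuclear copies were annotated transcripts with at least 95% identity to a mitochondrial transcript over at least 100 bases (blastn 2.17.0), and their counts were added to the gene in a second fit. Expected counts were rounded, filtered with filterByExpr, scaled with TMM and tested with edgeR 4.0.16 (quasi-likelihood, robust, group only), with p-values adjusted over all genes. The length correction fits a spline (5 degrees of freedom) of log2 length to the deviations of each library. The fit uses genes with average log2 CPM of at least 2, and its values enter as an offset for all genes tested. Shares and ratios were compared by exact permutation over the 6 libraries. Adjustment over RNA classes covers 2 classes, since tRNAs gave no value. The edgeR fits were tested on simulated data.

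The 37 genes, the lists of nuclear genes and the marker lists were chosen with earlier results of these data known. Named nuclear genes of mitochondrial gene expression are Polrmt, Tfam, Twnk, Lrpprc and Mtpap, and up to 4 in each direction with the smallest adjusted p among those with average log2 CPM of at least 2. Alternatives were other scalings, filters, tests (DESeq2 1.42.0, limma 3.58.1), TPM, length, copies, the replicate block and leaving out each library. Other marker lists, as ranges of summed CPM in untreated against rapamycin libraries, were activated, memory or regulatory T cell (72.1 to 76.8 against 61.2 to 62.6, where Cd44 was lower, at 33.7 against 10.7 CPM, while Ctla4 and Icos were higher and the median log2 fold change of the 5 tested was 0.27), NK cell (30.1 to 33.6 against 26.5 to 30.9), dendritic cell (3.42 to 4.33 against 1.97 to 2.37) and platelet (1.90 to 3.66 against 4.29 to 5.30). A listed marker gene is not reported here.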

Additional observations from a re-analysis of the deposited data

How the results depend on the processing

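As deposited, 7 mitochondrial genes were higher and 5 lower. The higher count was 4 with upper-quartile factors, 4 without composition factors and 3 with no filter, and the lower count was 2 on log2(TPM + 1), 2 on log2(TPM + 0.1), 1 with the length correction, 1 with the length and GC correction and 8 with nuclear copies added. With copies added, the length correction, chosen after seeing the data, gave 12 higher and 1 lower. Of the nuclear genes of mitochondrial gene expression, 25 were lower with upper-quartile factors, 24 without composition factors, 6 with DESeq2, 2 on log2(TPM + 1), 2 on log2(TPM + 0.1) and 8 with the length correction, and effective lengths as offsets gave 3 higher and 7 lower. Leaving out each library in turn gave 5 to 6 higher and 5 lower mitochondrial genes as deposited, 6 to 7 higher and 8 lower with copies added, and 7 to 9 higher and 10 to 17 lower machinery genes. Of all calls over all genes, 50.8% were higher, 42.5% with upper-quartile factors and 70.3% on log2(TPM + 1), and log2(TPM + 0.1) moved the median of all genes from -0.012 to 0.097.

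Directions that turned, as log2 fold changes, were these. With the length correction, mt-Nd1 was at 0.13, mt-Atp8 at 0.32, mt-Nd4l at 0.45 and mt-Nd6 at 0.10, and with copies added mt-Co2 was at 0.26, mt-Co3 at 0.16 and mt-Nd3 at 0.032. With the length and GC correction, mt-Nd1 was at 0.070, mt-Atp8 at 0.22, mt-Nd4l at 0.41 and mt-Nd6 at 0.015. With copies added and no length correction, mt-Co2 was at -0.084, mt-Nd3 at -0.45 and mt-Nd4l at 0.10. mt-Co1 was at -0.0016 with upper-quartile factors. On log2(TPM + 1), mt-Atp8 was at 0.090, mt-Nd4l at 0.22, Polrmt at -0.028 and Mtpap at 0.17, and on log2(TPM + 0.1) at 0.090, 0.22, -0.028 and 0.18. With effective lengths as offsets, mt-Nd4l was at 0.11, Polrmt at -0.13 and Mtpap at 0.065. Leaving out 1 library moved the deposited mt-Nd3 between -0.15 and 0.21, mt-Nd4l between -0.22 and 0.14 and Mtpap between -0.075 and 0.0079. For the copies, the alternative's own construction shows the change, and for the others the cause was not tested.

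As differences of mean log2 values between groups, with mt-Atp8 in the TPM sums unless stated, the mitochondrial share of all counts moved from 0.052 to 0.20 on TPM, 0.016 without cytosolic ribosomal protein genes and -0.026 with copies added. The mRNA share moved from 0.068 to 0.21 on TPM and -0.017 with copies, the rRNA share from -0.23 to -0.11 on TPM, and the L-strand share from -0.39 to -0.33 on TPM and -0.31 with copies. The ratio of mitochondrial to nuclear subunits was 0.39 in complex I and 0.36 in complex IV with length-corrected counts. With median log2 TPM it was 0.66, 0.91 and 0.78 in complexes III, IV and V. On expected counts it was 0.46 in complex III and 0.79 in complex V, and 0.97 in complex V with length-corrected counts. With copies added and without mt-Atp8 it was 0.34 in complex IV and 0.56 in complex V. All of these ratios stayed above 0.

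The labels do not say whether the replicate numbers pair the libraries. Deviations of same-numbered libraries correlated at -0.025, -0.009 and -0.031 over 9925 genes. No shared deviation was thus seen, which does not settle how the libraries were paired. With a replicate block, 7 mitochondrial genes were higher and 5 lower, and 8 and 14 machinery genes. Differences of mean shares and ratios cannot change with such a balanced block. Short genes limit the precision: mt-Atp8, mt-Nd3 and mt-Nd4l had the fewest counts of the mRNAs with copies added, and no tRNA could be counted.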
